A study of Mus musculus with 166 samples.

Results

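The comparison of heterozygous Q111 with heterozygous Q20 mice at 6 months rested on 16 cerebellar libraries of 166 in the series, 8 of each genotype, taken by the genotype and age in their titles. The series measured poly(A) RNA in cerebellum of Htt knock-in mice of 7 genotypes at 3 ages. In both groups one Htt allele carries a human HTT exon 1 with a CAG repeat, near 20 units in Q20 (allele Htt tm2Mem) and near 111 in Q111 (Htt tm5Mem), and the other allele is the mouse gene. Both lines had a C57BL/6 background, came from heterozygous males crossed to C57BL/6J females, and were sampled with 4 females and 4 males a group. Q20, with a repeat in the unexpanded range, serves as the control. Littermates of the same sex and genotype were not used together. The allele is present in every cell from conception, so the comparison does not say in which cells or when it acts.

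The myelinating cell of the brain is the oligodendrocyte, which wraps axons in a compacted stack of membrane held together by a small set of abundant proteins and built from galactolipids, long-chain sphingolipids and cholesterol. Precursor cells, which carry Pdgfra, mature into these cells under the transcription factors Olig2, Sox10 and Myrf. Il33, Car2 and Mal, the genes by which the comparison was chosen, are all transcribed in mature oligodendrocytes. In these tissue-wide libraries, fewer oligodendrocytes and less RNA per oligodendrocyte cannot be told apart.

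Total counts ran from 27183925 to 38087843 a library, and levels are in CPM, counts per 1000000 counts of the library. Htt was at 283, 289 and 312 CPM in Q111 (lowest, median, highest) and at 71.4, 288 and 308 CPM in Q20. The difference was 0.26 ± 0.20 on the log2 scale with 16 libraries (SE, edgeR adjusted p = 0.484), so the targeted gene did not separate the groups. Leaving out 1 library at a time gave 0.12 to 0.33, and 0.01 to 0.15 where the library under 150 CPM was left out of every fit. The lowest Htt level belonged to the Q20 library F3, the single library under 150 CPM. Q20 F1, at 166 CPM, was the next lowest. In both of them long transcripts were undercounted relative to short ones: the length index, the slope of a library's relative log2 CPM on log2 transcript length, was -0.55 in F3 and -0.17 in F1, against 0.011 to 0.049 in the other 14. Counts are therefore given with 16 libraries and with the 15 that remain without F3. Fold changes of single genes at 6 months are from the 15 libraries unless stated, with the value of 16 libraries beside any that it moves by over 1.5 times. Values with 14, without F1 and F3, are added where they differ as much. Xist and Ddx3y matched the labelled sex in 16 of 16 libraries.

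Il33, Car2 and Mal were lower in Q111 than in Q20 by about the same amount. Il33 (chromosome 19, 29925114 to 29960718, GRCm38, plus strand), which encodes a nuclear cytokine of the interleukin 1 family, was at 31.1, 34.9 and 42.2 CPM in Q111 and at 36.9, 45.1 and 70.2 CPM in Q20. The ranges overlapped through 1 Q111 female, F3, which lay above the next Q111 library at 36.1 CPM and above 3 of the Q20 males. Car2 (chromosome 3, 14886273 to 14900770, plus strand), the cytosolic carbonic anhydrase of oligodendrocytes, was at 110, 133 and 138 CPM in Q111 and at 143, 167 and 211 CPM in Q20. Every Q111 library lay below every Q20 library. Mal (chromosome 2, 127633226 to 127656695, minus strand), a proteolipid of compact myelin, was at 106, 118 and 134 CPM in Q111 and at 128, 154 and 185 CPM in Q20. Its groups overlapped narrowly.

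The differences with 16 libraries were -0.43 ± 0.09 for Il33, -0.43 ± 0.08 for Car2 and -0.36 ± 0.07 for Mal (log2, SE). With 15 libraries they were -0.43 ± 0.09, -0.37 ± 0.06 and -0.34 ± 0.06, and with 14 they were -0.44 ± 0.09, -0.35 ± 0.06 and -0.34 ± 0.07. An exact permutation test of the mean log2 CPM over 12870 relabelings gave p = 0.0014 for Il33, 0.000155 for Car2 and 0.000932 for Mal (two-sided, unadjusted). Relabelling within each sex gave 0.000408 for each of the 3 genes, the smallest p that the 4900 relabelings allow, since within females and within males every Q111 library lay below every Q20 library. That held for 12 of 15292 genes tested (0.0785%), with 5 genes on the higher side (0.0327%). None of the 3 passed the edgeR test after adjustment over 15292 genes (adjusted p = 0.461 with 16 libraries for each, and 0.263, 0.177 and 0.246 with 15). DESeq2 called all 3, with adjusted p = 0.0148, 0.00344 and 0.00344 with 16 libraries and 0.0048, 0.00017 and 0.00145 with 15. These genes were known from earlier results of the same data to be low in Q111, so the p-values describe them and are not independent evidence.

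**Figure D1:**
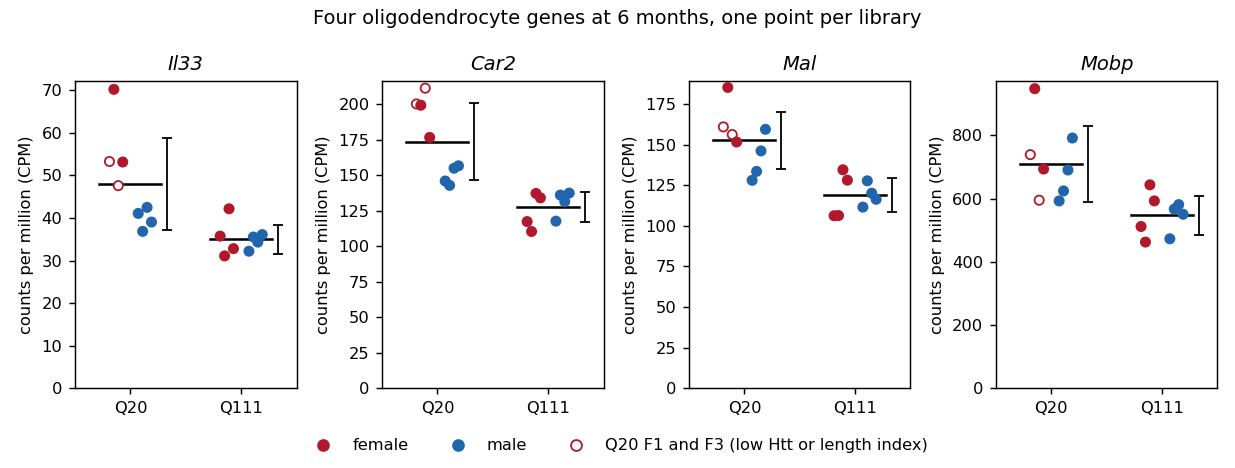
CPM (vertical axis, from 0) of Il33, Car2, Mal and Mobp in each of the 16 libraries at 6 months, females and males in separate colours and Q20 F1 and F3 as open points, with the mean (black line) and SD (bar) of each group. Within each sex the Q111 points lie below the Q20 points in all 4 panels, except in Mobp, where Q20 F3 lies below the highest Q111 female, and the highest point of each panel is a Q20 female.

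The promoters of 3 of the lower genes, Mobp, Mal and Il33, are printed because these genes moved together and differed in which oligodendrocyte factor motifs they held. They span 250 bases before to 50 after the RefSeq start (GRCm38.p6), and capitals mark the SOX core ACAAAG, the MYRF core CTGGCAC or the E-box CAGCTG on either strand, so ACAAAG on the other strand reads CTTTGT. The Mobp window is chr9:120149492-120149791 on the plus strand, the Mal window chr2:127656646-127656945 on the minus strand and the first of 2 Il33 windows chr19:29924863-29925162 on the plus strand.
Mobp: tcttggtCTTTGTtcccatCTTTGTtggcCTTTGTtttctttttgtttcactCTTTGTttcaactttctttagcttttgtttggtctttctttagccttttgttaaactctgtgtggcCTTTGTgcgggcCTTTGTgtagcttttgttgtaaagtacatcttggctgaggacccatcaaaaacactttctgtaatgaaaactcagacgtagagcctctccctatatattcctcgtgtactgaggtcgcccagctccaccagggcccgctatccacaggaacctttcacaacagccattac
Mal: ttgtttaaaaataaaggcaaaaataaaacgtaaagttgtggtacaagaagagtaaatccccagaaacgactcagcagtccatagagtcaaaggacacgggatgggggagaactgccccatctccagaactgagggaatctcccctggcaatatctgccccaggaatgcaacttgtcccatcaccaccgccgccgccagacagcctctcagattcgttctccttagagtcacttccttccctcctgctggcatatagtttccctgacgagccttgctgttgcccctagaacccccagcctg
Il33: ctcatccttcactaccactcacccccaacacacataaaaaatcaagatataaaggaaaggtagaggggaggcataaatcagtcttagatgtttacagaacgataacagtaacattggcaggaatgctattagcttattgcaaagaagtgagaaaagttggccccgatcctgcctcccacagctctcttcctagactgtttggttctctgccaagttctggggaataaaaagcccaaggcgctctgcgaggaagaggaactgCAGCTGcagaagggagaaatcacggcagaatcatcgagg
Mobp held 6 SOX cores, 243, 231, 221, 198, 132 and 120 bases before the start. Mal held none of the motifs and Il33 held 1 E-box. Of the 26 genes that passed as lower with 6 and 10 months together (described with the other ages), 19 had a promoter in the table, 24 windows in all. The SOX core stood in 7 of the 24 (29.2%), against 18.7% of all 32851 windows, the MYRF core in 1 (4.17%, against 5.01%) and the E-box in 4 (16.7%, against 16.3%). TATAAA, which overlaps none of these, stood in 2 (8.33%, against 13.6%).

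Across the transcriptome few genes stood clear of the spread between libraries. edgeR passed 0 of 15292 genes (0%) at an adjusted p under 0.05 with 16, 15 and 14 libraries, with lowest adjusted p = 0.461, 0.177 and 0.21. At an unadjusted p under 0.05, 1252 genes (8.19%) differed with 16 libraries, 739 lower (4.83%) and 513 higher (3.35%), and 1384 (9.05%) with 15, 663 lower (4.34%) and 721 higher (4.71%). DESeq2 passed 9 genes with 16 libraries (0.0589%), 8 lower (0.0523%) and 1 higher (0.00654%), and 25 with 15 (0.163%), 20 lower (0.131%) and 5 higher (0.0327%), all 9 among them. The 8 lower included Mal, Car2, Il33, Gpx3, Trim59, Prr18 and Il20rb. Without F3 the lower set also held Qdpr, Mobp, Fth1, Ugt8a, Klk6, Tspan2, Glul and Mbp. Of the 20 lower genes, 10 stood on the oligodendrocyte lists described next, which have 78 genes tested. Without Il33, Car2 and Mal, by which the comparison was chosen, 7 of 75 (9.33%) were called lower, and 1 of 75 with 16 libraries. Among the 7, Mobp, Ugt8a and Tspan2 had also been named earlier with CAG length in these data. The share is therefore not independent evidence. With 16 libraries, Car2 and Il20rb were among 4 genes whose groups did not overlap on the lower side (0.0262%), and Fam184b was the 1 gene on the higher side (0.00654%).

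The structural proteins of compact myelin were lower as a group. Of 22 such genes, all tested and Mal among them, 21 lay below 0 and 16 of them at an unadjusted p under 0.05, with a median of -0.27 against -0.01 over all genes. With 15 libraries these were 21, 15 and -0.24 against 0.01. With 14 libraries 22 lay below 0 and the median was -0.22. None was higher at that p. Over all genes tested 4.83% and 4.34% were lower at it with 16 and 15 libraries. Without Mal the medians of the other 21 were -0.27 and -0.23. The 13 mitochondrially encoded genes moved the same way, with 12 below 0 and 4 lower at that p with 16 libraries (median -0.38) and 13 and 7 with 15 (median -0.14). Their part in the myelin values was not tested. Mbp, a major protein of central myelin that binds the cytoplasmic faces of the membrane to each other, was at 1463, 1743 and 1908 CPM in Q111 and at 1772, 2041 and 2812 CPM in Q20 (-0.31 ± 0.08, DESeq2 adjusted p = 0.0363).

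Mobp, a basic protein of the major dense line and the gene of the 6 SOX cores above, was at 462, 558 and 643 CPM in Q111 and at 592, 692 and 948 CPM in Q20 (-0.39 ± 0.08, DESeq2 adjusted p = 0.0048 with 15 libraries). Only the highest Q111 libraries reached the Q20 range. The tetraspanin gene Tspan2 was at 104, 116 and 126 CPM in Q111 and at 106, 132 and 158 CPM in Q20 (-0.20 ± 0.05, DESeq2 adjusted p = 0.0218). Cldn11, the claudin of myelin tight junctions, was at -0.26 ± 0.06 without F3 and at -0.41 ± 0.14 with it, since F3 held the highest Cldn11 value of its group. Mag and Mog, a pair of membrane proteins of the inner and the outermost myelin surface, were at -0.26 ± 0.07 and -0.28 ± 0.08, and Gjc3, the connexin 29 gene, at -0.14 ± 0.04 (-0.08 ± 0.08 with 16). These 4 passed neither test at 6 months.

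Enzymes that make myelin lipids were lower by less. Of 16 tested, 11 lay below 0 with 16 libraries and 15 with 15, with 9 and 8 lower at an unadjusted p under 0.05 and medians of -0.18 and -0.12. Ugt8a, which makes galactosylceramide, was at 45.3, 53.2 and 67.3 CPM in Q111 and at 48.7, 66.3 and 84.1 CPM in Q20 (-0.38 ± 0.08, DESeq2 adjusted p = 0.00862 with 15 libraries). The lowest Q20 value was that of F3. The next was 61.7 CPM, which 1 Q111 library, F3, exceeded. Fa2h, which hydroxylates the fatty acids of myelin galactolipids, was at 23.5, 28.8 and 31.8 CPM in Q111 and at 30.5, 32.7 and 40.0 CPM in Q20 (-0.25 ± 0.06, DESeq2 adjusted p = 0.0503). The long-chain ceramide synthase gene Cers2 was at -0.16 ± 0.05 and the fatty acid elongase gene Elovl7 at -0.30 ± 0.10. Aspa, whose enzyme releases acetate from N-acetylaspartate, was at -0.25 ± 0.10. Cholesterol synthesis, which supplies myelin but runs in other cells too, had 21 genes tested, 8 lower and 1 higher at an unadjusted p under 0.05 with 16 libraries and 7 and 1 with 15. Its median was -0.13 and -0.08, with Msmo1 (-0.24 ± 0.06) and Fdft1 (-0.24 ± 0.07) among the lower.

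Other genes of mature oligodendrocytes followed the myelin proteins. Of 29 tested, Il33 and Car2 among them, 26 lay below 0 in both fits, 16 and 15 at an unadjusted p under 0.05, with medians of -0.24 and -0.21 and none higher at that p. Without Il33 and Car2 these were 24 of 27 in both fits, 14 and 13, with medians of -0.24 and -0.21. Gjb1, a member, also stands on the compact myelin list. Enpp2, another member, ran from 141 to 1271 CPM in Q20, and the list was not counted without it. Qdpr, which regenerates tetrahydrobiopterin, was at 91.7, 106 and 120 CPM in Q111 and at 114, 130 and 278 CPM in Q20. The highest Q20 value was that of F3, and without it the difference was -0.35 ± 0.06 (edgeR adjusted p = 0.177, DESeq2 0.000228) in place of -0.53 ± 0.15. Klk6, a secreted serine protease, was at 8.12, 11.5 and 14.1 CPM in Q111 and at 12.04, 14.9 and 27.5 CPM in Q20 (-0.51 ± 0.11, DESeq2 adjusted p = 0.0118 with 15 libraries). The iron genes Trf, which encodes transferrin, and Fth1, the ferritin heavy chain and no member of the list, were at -0.27 ± 0.07 and -0.37 ± 0.08 (Fth1 at -0.63 ± 0.21 with 16), and Fth1 passed by DESeq2 (adjusted p = 0.0048). Fth1 was at 2594 CPM in Q20 F3 and at 1242 CPM in the next library. Pex5l, which regulates HCN channels, was at -0.40 ± 0.11, and Serpinb1a, a protease inhibitor gene named after its values were seen, at -0.35 ± 0.09.

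The genes that specify the lineage and those of its precursors lay closer to 0. Of 12 transcription factor genes tested, 8 lay below 0 with 16 libraries and 7 with 15, with medians of -0.06 and -0.08. One was lower at an unadjusted p under 0.05 in each fit, beside 4.83% and 4.34% of all genes tested. With 15 libraries it was Myrf (-0.14 ± 0.05, against -0.08 ± 0.09 with 16). Sox10 was at -0.18 ± 0.09 with 15 libraries and at -0.10 ± 0.08 with 14, and St18 at 0.21 ± 0.11 with 16, 0.13 ± 0.07 with 15 and 0.07 ± 0.04 with 14. Of 15 genes of precursors and newly formed oligodendrocytes, 14 were tested. With 16, 15 and 14 libraries 4, 5 and 7 of them lay below 0, with medians of 0.11, 0.05 and 0.004. Pdgfra, the precursor's growth factor receptor, was at 20.0, 25.0 and 26.7 CPM in Q111 and at 13.2, 22.4 and 32.1 CPM in Q20. Its groups overlapped throughout and its difference was 0.06 ± 0.12 with 16 libraries, -0.01 ± 0.08 with 15 and -0.07 ± 0.07 with 14. Bcas1, a marker of oligodendrocytes that have begun to myelinate, was the one member lower at an unadjusted p under 0.05 (-0.30 ± 0.09). Tnr, a matrix glycoprotein of a long transcript, was at 0.98 CPM in Q20 F3 and moved from 0.55 ± 0.41 to 0.14 ± 0.07 without F1 and F3.

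**Figure D2:**
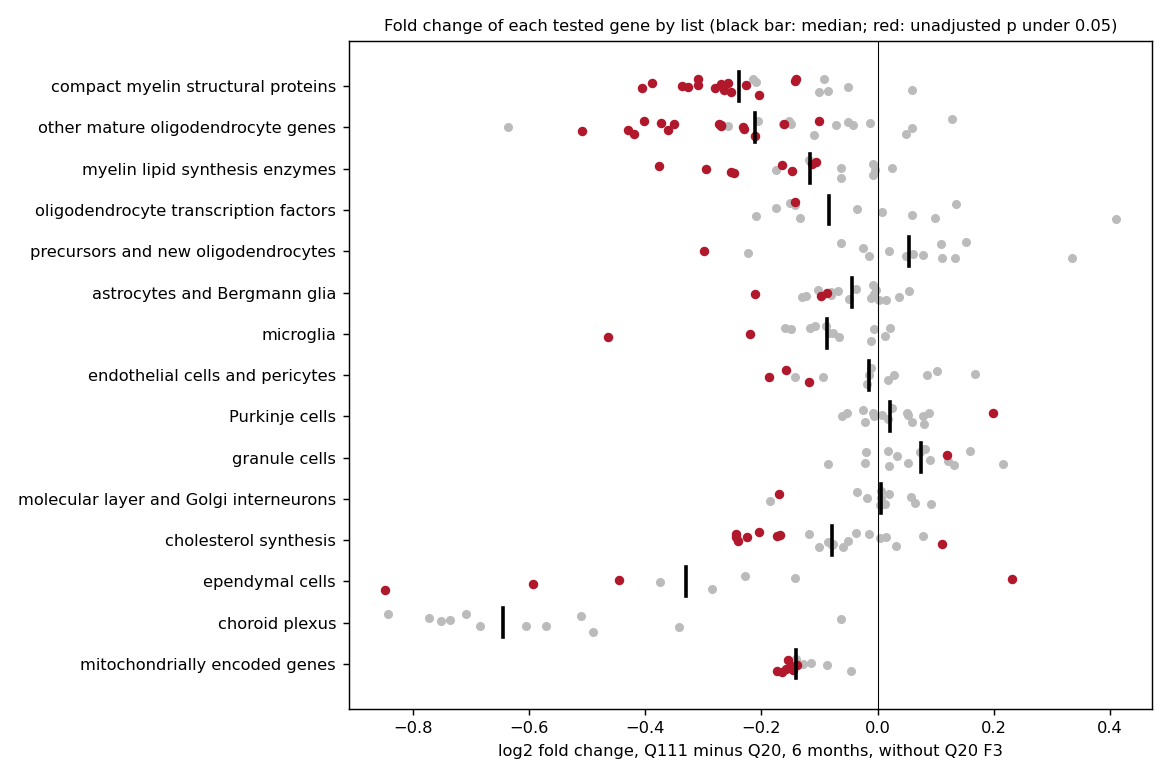
Log2 fold change at 6 months, Q111 minus Q20 without Q20 F3 (horizontal axis), of each tested gene of each list, with the list's median as a black bar and genes at an unadjusted p under 0.05 in red. The myelin protein list (median -0.24) and the other mature oligodendrocyte genes (-0.21) lie to the left, the precursor list is at 0.05, and the choroid plexus list has the lowest median (-0.64) and no red point, followed by the ependymal list (-0.33).

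The medians of the astrocyte and neuron lists lay closer to 0 than that of the myelin proteins, with some glial genes lower. Of 20 genes of astrocytes and Bergmann glia, 2 were lower at an unadjusted p under 0.05 with 16 libraries and 3 with 15 (medians -0.09 and -0.04). Glul, glutamine synthetase, was at 717, 807 and 912 CPM in Q111 and at 827, 962 and 1037 CPM in Q20 (-0.21 ± 0.05, DESeq2 adjusted p = 0.0278 with 15 libraries), and the connexin 43 gene Gja1 was at -0.10 ± 0.03 (-0.16 ± 0.06 with 16). Of 14 microglial genes 2 were lower at that p, Aif1 (-0.46 ± 0.14, at 0.85 to 1.35 CPM in Q111) and the purinergic receptor gene P2ry12 (-0.22 ± 0.07), with a median of -0.21 with 16 libraries and -0.09 with 15. Of 16 Purkinje cell genes 0 and 1 differed at that p by edgeR (median 0.02 with 15 libraries), and of 16 granule cell genes 1, the transcription factor gene Pax6 (0.12 ± 0.04, median 0.08). Over all genes tested 8.19% and 9.05% differed at that p with 16 and 15 libraries. The summed level of the 16 Purkinje cell genes was 9722 to 11510 CPM in Q111 and 9084 to 10870 CPM in Q20, so the cells of the tissue named in the labels were present in both groups.

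Tissue carried over from the ventricle differed between libraries. All 12 choroid plexus genes lay below 0, with medians of -0.56 and -0.64, but none reached an unadjusted p under 0.05. Their summed level was 39.3 to 2039 CPM in Q111 (median 546) and 31.7 to 2838 CPM in Q20 (median 1436). Ttr, the transthyretin gene that marks choroid plexus, was at 1398 to 2594 CPM in the 4 Q20 females and at 2.11 to 1808 CPM in the 4 Q111 females. With the choroid plexus level as a covariate and 15 libraries, Il33 was at -0.42 ± 0.09, Car2 at -0.34 ± 0.06 and Mal at -0.30 ± 0.06. Genes of short, abundant transcripts summed to 4845 CPM in the highest Q20 library and to 2238 CPM in the highest Q111 library, and their median moved from -0.43 to -0.06 without F3. The 8 ependymal genes had medians of -0.48 and -0.33, farther from 0 than the myelin proteins. Of them 2 were lower at an unadjusted p under 0.05 with 16 libraries and 3 with 15, the cilium factor gene Foxj1 among them (-0.44 ± 0.18), and 1, Hydin, was higher with 15 (0.23 ± 0.10). The part of ventricular tissue in the oligodendrocyte values was tested only through that covariate.

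Few relatives of Il33 and Car2 differed at an unadjusted p under 0.05, which 9.05% of all genes tested reached with 15 libraries. The single genes below are given as values only. Of 12 genes of the interleukin 1 family and its receptors 8 were tested, and beside Il33 (-0.43) Il18 was lower at that p (-0.22 ± 0.10, and -0.44 ± 0.19 with 16), the receptor genes Il1rap and Il1r1 being at -0.11 ± 0.06 (-0.07 ± 0.08 with 16) and 0.12 ± 0.08. Of 13 carbonic anhydrase genes 12 were tested, with a median of -0.02 with 15 libraries. The mitochondrial Car5b was lower at that p (-0.27 ± 0.11), and Car14, a membrane enzyme, was at -0.21 ± 0.10. Car12, named after its values were seen, had the lowest value and the widest error (-0.66 ± 0.71). Il20rb, a subunit of the interleukin 20 receptor, was at 71.2, 80.0 and 90.3 CPM in Q111 and at 91.0, 92.8 and 96.1 CPM in Q20. Its groups did not overlap and its difference was -0.18 ± 0.04 (DESeq2 adjusted p = 0.0235 with 15 libraries). Gpx3, an extracellular glutathione peroxidase, was at 3.05, 3.84 and 4.32 CPM in Q111 and at 3.46, 6.69 and 7.75 CPM in Q20 (-0.59 ± 0.13, DESeq2 adjusted p = 0.0157). Trim59 (-0.43 ± 0.09) and Prr18 (-0.35 ± 0.07) were lower as well, with DESeq2 adjusted p = 0.0118 and 0.00862.

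DESeq2 called fewer genes higher than lower in Q111. Synpr, which encodes the synaptic vesicle protein synaptoporin, was at 82.8, 92.7 and 97.5 CPM in Q111 and at 75.6, 78.5 and 90.6 CPM in Q20. Its difference was 0.18 ± 0.06 with 16 libraries and 0.23 ± 0.04 with 15 (edgeR adjusted p = 0.217, DESeq2 0.00138). Itpr3, an inositol trisphosphate receptor gene, was at 53.1, 59.9 and 64.1 CPM in Q111 and at 15.1, 47.2 and 56.0 CPM in Q20, with the lowest value far under the rest (0.37 ± 0.08 with 15 libraries, DESeq2 adjusted p = 0.00837). Sez6, a neuronal membrane protein, was at 115, 126 and 134 CPM in Q111 and at 96.2, 111 and 121 CPM in Q20. It was the 1 gene that DESeq2 called higher with 16 libraries (0.19 ± 0.04, adjusted p = 0.0148). Fam184b, named after its values were seen, was at 17.6, 18.4 and 20.0 CPM in Q111 and at 14.6, 16.4 and 17.2 CPM in Q20 (0.21 ± 0.05 with 15 libraries, DESeq2 adjusted p = 0.0503), with no overlap.

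The oligodendrocyte genes, and those of several other lists, differed by more in females than in males, without passing a test of that contrast. In males Il33 was at -0.21 ± 0.05, Car2 at -0.21 ± 0.05 and Mal at -0.26 ± 0.06. In females without F3 they were at -0.69 ± 0.12, -0.58 ± 0.08 and -0.44 ± 0.10. Car2 was at 177 to 211 CPM in the Q20 females and at 143 to 157 CPM in the Q20 males, while the Q111 libraries of both sexes lay between 110 and 138 CPM. The test of the difference between the sexes (male minus female) gave 0.46 ± 0.14 for Il33, 0.36 ± 0.09 for Car2 and 0.17 ± 0.12 for Mal, with edgeR adjusted p = 0.411, 0.411 and 0.619. Over all genes edgeR passed 0 for that difference (0%), and 1603 (10.5%) had an unadjusted p under 0.05. The median of the myelin protein list was -0.13 in males and -0.38 in females without F3. Other lists were also lower in females without F3 than in males. Microglial genes were at -0.05 in males and -0.20 in females, ependymal genes at -0.21 and -0.58, and mitochondrially encoded genes at -0.02 and -0.30. Astrocyte genes were at -0.04 and -0.07, Purkinje cell genes at 0.01 and 0.02, and granule cell genes at -0.01 and 0.11. The choroid plexus list moved in parallel, at -0.14 in males and -1.11 in females, and both Q20 libraries of low length index were female. The part of either in the difference between the sexes was not tested.

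The same contrast was then read in other animals, 7 Q111 and 8 Q20 libraries of 10 months. Il33 was at 38.0, 39.5 and 48.4 CPM in Q111 and at 45.6, 54.0 and 69.2 CPM in Q20, Car2 at 128, 136 and 177 CPM and at 168, 178 and 208 CPM, and Mal at 116, 132 and 150 CPM and at 146, 160 and 204 CPM. In each gene 1 Q111 male, M2, held the highest value of its group and reached into the Q20 range. The differences were -0.40 ± 0.08, -0.36 ± 0.07 and -0.29 ± 0.06, with exact permutation p = 0.000622, 0.000777 and 0.000622 (two-sided, 6435 relabelings). The animals are others, but the genes had been named earlier with CAG length in the same series. These p-values too describe them and are not independent evidence. At 2 months, without the 1 library of Htt under 150 CPM, the differences were 0.01 ± 0.09 for Il33, 0.05 ± 0.08 for Car2 and 0.01 ± 0.07 for Mal. With all 16 libraries of 2 months the exact permutation p were 0.917, 0.307 and 0.775.

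By edgeR 1 gene passed at 10 months (0.00649% of 15413), the unnamed transcript 6030443J06Rik (1.39 ± 0.18, adjusted p = 0.0109), and 3.72% of genes had an unadjusted p under 0.05. The count was 0 with the replicate block (lowest adjusted p = 0.0982), 23 by DESeq2 and 8 without Q111 M2. That library stood apart from the rest of its group in Htt too (211 CPM). Without Q111 M1 or Q20 F5 it was 2. The sex-linked genes matched the label in 14 of 15 libraries of 10 months, and Q20 F5, labelled female, was the exception. At 2 months edgeR passed 0 genes with 16 libraries (0%), while 255 (1.67%) had p under 0.05 before adjustment and DESeq2 passed 0. For the difference between 10 and 6 months edgeR passed 0 genes (0%), with 717 (4.69%) at an unadjusted p under 0.05, and it was 0.04 ± 0.13 for Il33, 0.03 ± 0.10 for Car2 and 0.05 ± 0.09 for Mal. The median of the myelin protein list was -0.09 at 10 months and 0.06 at 2 months, and Mbp was at -0.16 ± 0.08 at 10 months. At 10 months 8 of the 22 myelin protein genes were lower at an unadjusted p under 0.05, beside 326 of 15413 genes. The microglial, cholesterol synthesis and astrocyte lists had medians of -0.09, -0.08 and -0.07 at that age. Of their genes 1 of 14, 5 of 21 and 6 of 20 were lower at that p. The myelin median thus did not stand apart from these lists at 10 months.

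With 6 and 10 months in one fit, an analysis chosen after the data had been seen, 38 of 15292 genes passed in edgeR (0.248%), 26 lower (0.17%) and 12 higher (0.0785%) over 15 libraries of each genotype. Of the 26 that fell, 14 belonged to the oligodendrocyte lists, which had 78 genes tested. Without Il33, Car2 and Mal these were 11 of 75 (14.7%). Of these, Mobp, Tspan2, Ugt8a and Gjc3 had also been named earlier with CAG length in these data, so the share is not independent evidence. Car2 was at -0.36 ± 0.05 (adjusted p = 0.000244), Mal at -0.31 ± 0.05 (0.000589) and Il33 at -0.41 ± 0.06 (0.0012). Of the myelin proteins Mobp (-0.34), Tspan2 (-0.21), Cldn11 (-0.26) and Gjc3 (-0.16) fell too. Of the lipid enzymes Ugt8a (-0.34) and Fa2h (-0.25) fell, and of the other mature genes Qdpr (-0.29), Klk6 (-0.42), Trf (-0.21) and Pex5l (-0.38). Mbp did not pass (-0.23 ± 0.06, adjusted p = 0.0981). Serpinb1a (-0.39), Prr18 (-0.31), Trim59 (-0.37), Gpx3 (-0.43) and Aqp4 (-0.14), the water channel of astrocytes, were among the rest. The 12 that rose included Synpr (0.23), Fam184b (0.21), Lrrtm2 (0.17), a synaptic adhesion protein, Tnc (0.34), the matrix protein tenascin C, and the mucin gene Muc15 (0.43). All 38 had the same sign at 6 months with 15 libraries and at 10 months, and 36 with 16 libraries of 6 months, which the joint fit itself favours. With all libraries 19 passed, by DESeq2 72, without Q111 M2 of 10 months 76 and without Q20 F5 of 10 months 33.

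**Figure D3:**
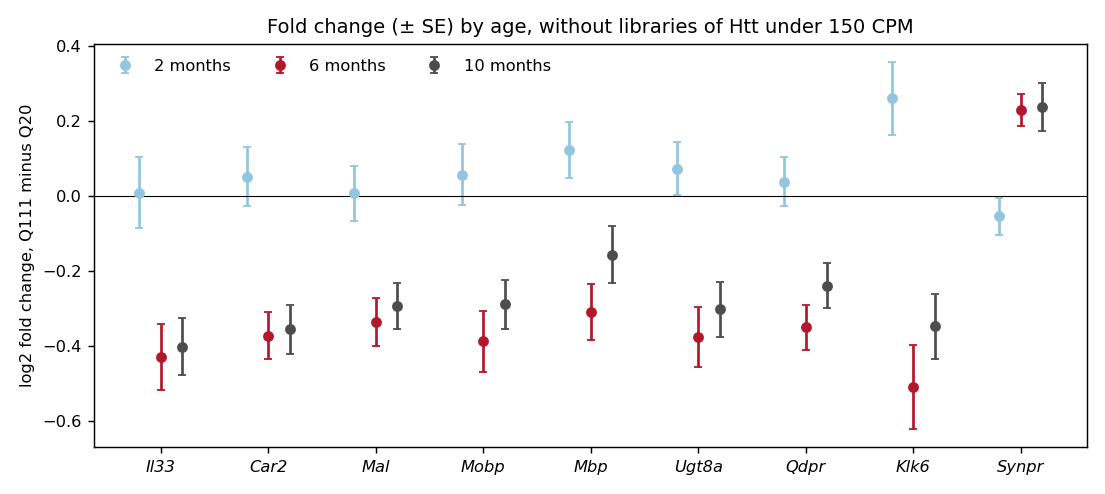
Log2 fold change, Q111 minus Q20, with its SE (vertical axis) for oligodendrocyte genes and Synpr at 2, 6 and 10 months, without libraries of Htt under 150 CPM. At 6 and 10 months the points of every gene but Synpr lie below 0 (-0.43 and -0.40 for Il33), and at 2 months Il33, Car2 and Mal lie between 0.01 and 0.05.

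Some of the genes that passed lie close to Htt itself. Of the 38, 5 are on chromosome 5, which holds 6.23% of the tested genes, and 4 within 20 megabases of the start of Htt (chromosome 5, 34761740 to 34912534, GRCm38), where 229 of the 15118 tested genes with a position lie (1.51%). They are 6030443J06Rik, whose start is 12.2 megabases before that of Htt, Fam126a, 10.8 before it, and Qdpr (45434021 to 45450236) and Fam184b (45529705 to 45639614), 10.7 and 10.8 after it. Qdpr and Fam184b are near neighbours and moved in opposite directions. 6030443J06Rik, which has no named function here, was at 0.85, 1.67 and 2.11 CPM in Q111 and at 0.11, 0.74 and 1.33 CPM in Q20 at 6 months (1.06 ± 0.29 with 15 libraries), and it was higher by about as much at 2 months (1.21 ± 0.22), the age at which Il33, Car2 and Mal were not lower. Fam184b was at 0.03 ± 0.05 at 2 months.

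The other lines of 6 months place the Q111 levels. The mean of Il33 was 48.0 ± 10.9 CPM in Q20 (SD, n = 8 in each line), against 34.99 ± 3.42 in Q111 and 36.3 ± 4.20 in Q140, with Q80 and Q92 between them at 41.9 ± 6.16 and 42.5 ± 5.82. In WT it was at 47.3 ± 5.47 and in Q175 at 28.3 ± 2.34, from libraries of another name format. Car2 was at 174 ± 27.1, 162 ± 18.6, 154 ± 16.7, 128 ± 10.8 and 138 ± 12.1 CPM from Q20 to Q140, at 156 ± 7.36 in WT and at 117 ± 7.29 in Q175. Mal was at 153 ± 17.8, 139 ± 14.9, 141 ± 15.6, 119 ± 10.6 and 124 ± 10.2 CPM from Q20 to Q140, at 144 ± 7.42 in WT and at 105 ± 8.86 in Q175. In all 3 genes the Q111 mean lay below that of Q140, by less than 1 SD of either, below those of Q80 and Q92 and above that of Q175. The lines share the Q20 libraries as controls, so these levels are given side by side with no test.

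**Figure D4:**
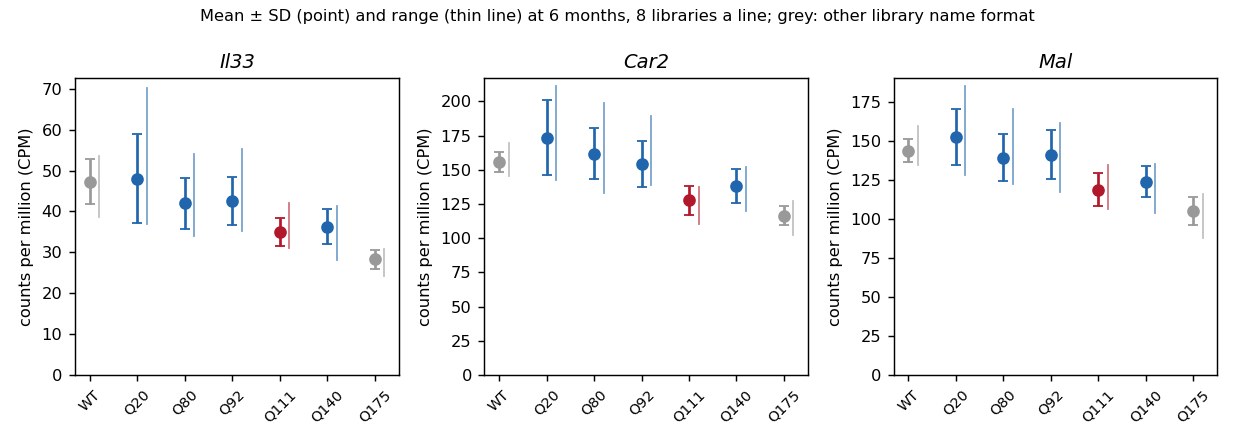
CPM (vertical axis, from 0) of Il33, Car2 and Mal at 6 months in 7 genotypes, 8 libraries each, as mean and SD (point and bar) with the range as a thin line, and WT and Q175 in grey for their other library name format. Q111 lies below Q20, Q80 and Q92 and close to Q140 in each panel, with Q175 the lowest at 28.3, 117 and 105 CPM.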

How the data were processed

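Cerebellar poly(A) RNA was sequenced from 8 Q111 and 8 Q20 mice of 6 months. The authors deposited expected counts per gene (estimated counts, 83.6% of them whole) and FPKM per gene. CASAVA 1.8.2 is named in the submitters' processing notes. For the mRNA tables, aligner, counter, genome build and annotation were not given in the sources used here. Of 39179 gene identifiers 96% had a symbol.

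Expected counts were rounded and tested with edgeR 4.0.16 (R 4.3.3) by its quasi-likelihood F-test, with TMM normalization, sex as covariate and Benjamini-Hochberg adjustment over genes of at least 0.5 CPM in at least 8 of the 16 libraries (7 at 10 months), two-sided, threshold 0.05. The test was fitted on these 16 columns and again without libraries of Htt under 150 CPM. SE was derived from the F statistic, as the size of the log2 fold change divided by its square root. Of the alternatives, DESeq2 1.42.0 and limma 3.58.1 on log2(deposited FPKM + 0.1) are the other tests, and the closing section gives their effect. Scripts were tested on simulated data. No columns were identical, and replicates differed by more than sampling noise (lowest chi-square per degree of freedom 6.41 over 56 pairs). Each library is labelled as a separate sample, and the study describes separate animals. Counting error is small at these totals except in genes of few CPM, since 1 CPM is 27.2 to 38.1 counts. The p-values set each difference against the spread between libraries. Tissue carried over and the length index enter that spread beside the differences between animals.

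Named genes were Htt, Il33, Car2, Mal, up to 4 genes a list of the smallest p in the fit without the low Htt library, and genes past the edgeR threshold. One gene is not reported here. Since edgeR passed none at 6 months, genes named from DESeq2 or from the joint fit of 6 and 10 months were chosen after their values were seen. So were the fits without Q20 F1 and F3, within each sex, over 5 lines and over both ages. The genes, lists and comparison were chosen with earlier results of these data known. The lists not described in the text (brainstem and forebrain, interneurons, meninges and blood, endothelium, immediate early genes, chaperones, MAL family and tetraspanins, Htt partners, and 45 genes earlier named with CAG length) had medians of -0.05, 0.01, 0.09, -0.01, -0.01, -0.06, -0.13, 0.04 and 0.06 with 15 libraries. The last list went both ways. Of its 45 genes 8 were lower and 13 higher at an unadjusted p under 0.05 with 15 libraries, beside 4.34% and 4.71% of all genes. In the joint fit of 6 and 10 months, 7 of them passed as lower and 4 as higher, of 26 and 12 over all genes.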

Additional observations from a re-analysis of the deposited data

Results flagged for a closer look

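In groups of 7 or 8 libraries, 120 sets of values were checked for 1 library far from the others by Dixon's 95% value, which chance flags in about 1 set of 20, and 21 were flagged. The sets are not independent, since they come from the same libraries. Of the 21, 11 concern the Q20 library F3 of 6 months, the library of lowest Htt. Its length index was -0.55, with the nearest library at -0.17. It was the highest of Q20 in Cldn11 (139.9 CPM, nearest 93.9), Qdpr (277.8, nearest 173.6), Fth1 (2594, nearest 1242), Il18 (12.96, nearest 6.59) and Aif1 (3.22, nearest 1.89). It was the lowest in Gjc3 (56.9 CPM, nearest 90.2), Myrf (30.2, nearest 49.8), Aqp4 (322, nearest 414), Lrrtm2 (37.8, nearest 49.2) and Il1r1 (5.65, nearest 8.59). The fits without F3 leave these values out.

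In Q111 at 6 months the female F3 was far above the others in Il33 (42.2 CPM, nearest 36.1), Aspa (22.3, nearest 18.2) and Trim59 (18.1, nearest 15.1), and the female F2 far below them in Gjc3 (74.0 CPM, nearest 84.8) and Gja1 (185.6, nearest 208.1). At 10 months the Q111 male M2 was far below in Htt (210.6 CPM, nearest 264.8) and far above in Il33 (48.4, nearest 41.6) and Car2 (177.4, nearest 141.8). In Q20 at 10 months F2 was far above in Htt (306 CPM, nearest 292.3) and F5 in Mal (203.7, nearest 173.2).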

How the results depend on the processing

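No gene of 6 months passed in edgeR with RLE size factors, without a filter on low counts, with at least 5 CPM, without the sex covariate, with the length index, choroid plexus level or library name token, or in limma on FPKM, with 16 or 15 libraries. DESeq2 passed 9 and 25, one fit of all 7 genotypes 3 (Mal, Car2, Il33) and of 5 lines 9. Leaving out 1 library gave 0 to 1 with 15 (Synpr, without Q111 F1). Same-numbered libraries correlated at 0.01 to 0.35 in their deviations and 0 of 8 best with their own number, so the replicate block pairs nothing by design; with it 0 passed at 6 months (958 and 1055 genes at an unadjusted p under 0.05) and 0 at 10 months (795), where DESeq2 passed 23 and leaving out 1 library gave 1 to 8. The joint fit gave 19 with all libraries, 72 by DESeq2 and 32 to 76 without 1 library. Medians in males and in females with F3 kept were -0.13 and -0.42 for myelin proteins, -0.0404 and -0.303 for lipid enzymes and -0.0518 and -0.412 for microglia (-0.0608 with the length index and -0.0594 without F1 and F3). Without F3 the female medians of these lists were -0.38, -0.24 and -0.20. Pdgfra changed sign with 16 libraries at -0.0682 (length index), -0.0925 (name token), -0.0143 (without F3) and -0.0726 (without F1 and F3), with 15 at 0.00506 (choroid plexus), and without 1 library at -0.0143 to 0.139 and -0.0726 to 0.0501. Htt did at -0.0457 (males) and -0.00325 (15 libraries, length index) and Il33 of 2 months at 0.00846 without the low Htt library. The causes were not tested. Of other single-gene values 1535 kept sign and side of the threshold, 51 crossed it to pass and 10 to fail.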
